A study of Mus musculus with 6 samples.

Results

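The protein disulfide isomerase (PDI) family of the endoplasmic reticulum (ER) was followed through 9 of its genes, *P4hb*, *Pdia3*, *Pdia4*, *Pdia5*, *Pdia6*, *Txndc5*, *Erp44*, *Erp29* and *Tmx1*, in liver RNA of WT and *Sirt7* KO mice. They were chosen by name as ER oxidoreductases with a thioredoxin fold. They are 9 of the 54115 genes that have a transcript in the expression files, and all 9 were among the 12524 genes with enough reads to be tested. PDI proteins form, break and rearrange disulfide bonds in proteins that enter the secretory pathway, through thioredoxin-like domains that pass electrons between substrate cysteines and oxidases such as ERO1. Hepatocytes secrete most plasma proteins, many of them rich in disulfides, and several PDI genes are known targets of the unfolded protein response, the program that raises ER chaperones when folding is overloaded. These statements are background and were not measured here.

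Livers came from 3 WT and 3 *Sirt7* KO mice, all male, 24 months old and fasted for 16 h, and each mouse gave 1 RNA-seq library. SIRT7 is a nuclear NAD-dependent deacylase of the sirtuin family, and the study profiled these livers to look for what lies behind higher hepatic *Fgf21* in old KO males. The KO line came from a mixed strain background and was backcrossed to C57BL/6J. WT and KO mice were bred as littermates from heterozygous parents, and the sources name no tissue to which the deletion is limited. The samples are whole liver, so a different number of cells of one type and a different amount of RNA per cell cannot be told apart. Each library held between 9994860 and 13424776 estimated reads assigned to transcripts. *Sirt7* itself was 55.0, 45.4 and 47.2 CPM (estimated reads scaled to the library size) in WT and 28.5, 41.7 and 40.7 CPM in KO mice. It was lower in every KO mouse than in any WT mouse, but reads remained in the KO, and the difference (log2 fold change -0.41 ± 0.18 SE) had an adjusted p of 0.42 in edgeR's quasi-likelihood test. Which exons the KO allele lacks is not given in the sources used here, so reads of the remaining exons check the labels only in part. The study also measured *Sirt7* by qRT-PCR in liver of both genotypes, with a figure legend that defines a mark for not detected. Those qRT-PCR values were not used here. Lists of marker genes showed liver in all 6 mice. Of 7 listed hepatocyte markers, the 6 found by symbol summed to between 44599 and 50725 CPM in WT and between 47869 and 58623 CPM in KO mice. Macrophage, stellate, endothelial, lymphocyte, plasma cell and cholangiocyte markers had ranges that overlapped between the genotypes, and none of the tested markers of any list reached an unadjusted p under 0.05. The 6 markers of plasma cells, secretory cells that also carry much PDI, all had reads in some mice, and 4 of them were tested. They summed to 201 to 216 CPM in WT and 197 to 265 CPM in KO mice. Most of that sum was *Xbp1*, which hepatocytes also express, at a mean of 172 CPM in WT and 203 CPM in KO mice. The sum is thus a weak measure of plasma cells. The part of plasma cells in the results below was not tested.

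The estimates for KO against WT livers ranged widely over the members, and differences between members were not tested. *P4hb*, *Pdia3*, *Pdia4* and *Pdia5* were higher in KO livers at an unadjusted p under 0.05, with log2 fold changes from 0.46 to 0.98. *Pdia6* had the highest estimate, 1.09, but also the widest spread among mice. *Txndc5*, *Erp44*, *Erp29* and *Tmx1* lay between -0.14 and 0.22 and did not pass. After adjustment over all genes by the Benjamini-Hochberg method, 0 of the 9 members passed an adjusted p under 0.05 with a fold change over 1.5 in edgeR, where 0.00798% of all tested genes, that is 1 gene, passed in the same direction. DESeq2 was the test used by the study and is an alternative to edgeR here. With it, *Pdia3*, *Pdia4* and *Pdia5* passed both limits, where 1.66% of the 11063 genes with an adjusted p passed in the same direction.

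At an unadjusted p under 0.05, 4 of the 9 members were higher in KO livers, beside 6.54% of all tested genes. None was lower, beside 4.78% of all tested genes. In 5 of the 9 members, those 4 and *Erp44*, every KO mouse was above every WT mouse, a separation seen in 8.76% of all tested genes. The opposite separation occurred in none of the members and in 8.06% of all tested genes. The median log2 fold change of the members was 0.46, with 8 of 9 above 0, whereas the median of all tested genes was -0.0061 and 49.3% of them were above 0. Without KO mouse 1 the median of the members was 0.23, with *Pdia6* at 0.04. Scaling to total counts in place of the trimmed mean of M-values (TMM) moved the median of all genes to -0.11 and the share of higher genes among those with an unadjusted p under 0.05 from 57.8% to 34.4%. Under that scaling *Pdia3*, *Pdia4* and *Pdia5* were still higher at an unadjusted p under 0.05, and *P4hb* was not.

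**Figure D1:**
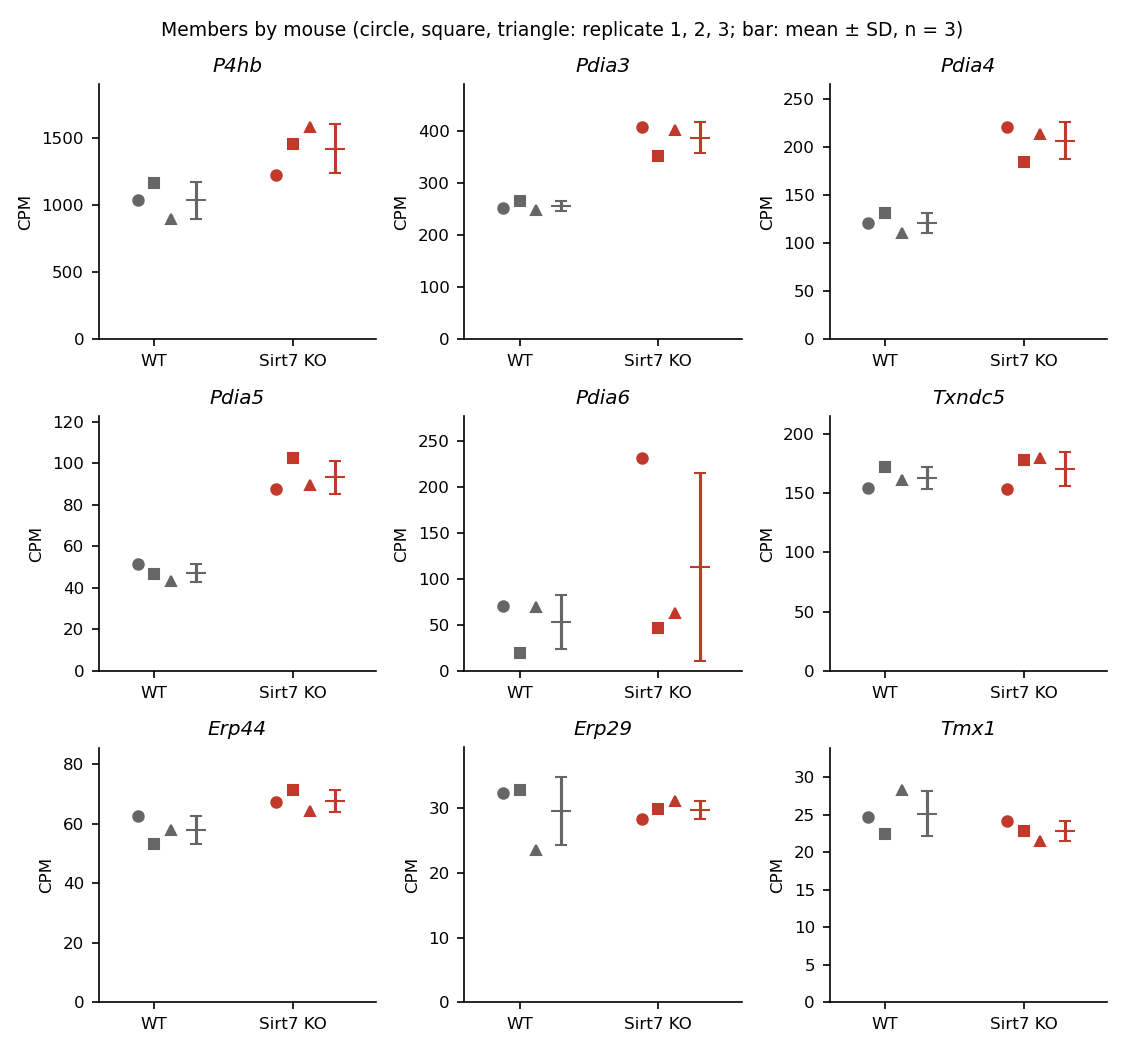
CPM of the 9 members in each of the 3 WT (grey) and 3 *Sirt7* KO (red) livers, on linear axes that start at 0. Circles, squares and triangles are mice 1, 2 and 3 of each genotype, which are different animals, and the bar beside them is the mean ± SD. The genotypes separate for *P4hb*, *Pdia3*, *Pdia4*, *Pdia5* and *Erp44*, while *Pdia6* ranges from 46.6 to 231 CPM within the KO group.

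*P4hb* encodes PDI itself, the most abundant general oxidase and isomerase of the ER, which also serves as a subunit of prolyl 4-hydroxylase and of the microsomal triglyceride transfer protein complex. It lies on the minus strand at chr11:120560298-120573253 (GRCm38). It measured 1044, 1170 and 898 CPM in the WT mice and 1229, 1456 and 1585 CPM in the KO mice. The groups did not overlap, although the lowest KO mouse was close to the highest WT mouse. The log2 fold change was 0.46 ± 0.17 (SE), with an unadjusted p of 0.028 and an adjusted p of 0.36 in edgeR. This unadjusted call was lost in edgeR without WT mouse 3 (unadjusted p of 0.11), without KO mouse 2 (unadjusted p of 0.072) and without KO mouse 3 (unadjusted p of 0.11), and under total-count scaling (unadjusted p of 0.067).

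*Pdia3* encodes ERp57, which works with calnexin and calreticulin on glycoproteins and is part of the loading complex of MHC class I. It lies on the plus strand at chr2:121413775-121438687. It stood at 253, 266 and 248 CPM in WT and at 408, 353 and 402 CPM in KO livers. The 3 WT mice lay within a narrow band, and all KO mice were well above it. The log2 fold change was 0.60 ± 0.14, with an adjusted p of 0.17 in edgeR (0.0053 to 0.47 over the 14 alternatives) and an unadjusted p of 0.0019. With DESeq2 the adjusted p was 0.0053.

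*Pdia4* encodes ERp72, a PDI with additional thioredoxin-like domains, and lies on the minus strand at chr6:47796141-47813430. It stood at 121, 131 and 111 CPM in WT and at 221, 185 and 214 CPM in KO livers. Every KO mouse was above every WT mouse. The log2 fold change was 0.77 ± 0.14, with an unadjusted p of 0.00047 and an adjusted p of 0.12 in edgeR. The adjusted p ranged from 0.00010 to 0.36 over the alternatives and was 0.00058 with DESeq2.

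*Pdia5*, at chr16:35397312-35490873 on the minus strand, encodes PDIR, a less abundant oxidoreductase linked to the activation of ATF6, a sensor of the unfolded protein response. It measured 51.5, 46.6 and 43.1 CPM in WT and 87.7, 102 and 89.5 CPM in KO livers. The fitted level in KO livers was 1.98 times that in WT livers, with no overlap between the groups. Its log2 fold change of 0.98 ± 0.14 had the smallest p of the members as annotated, 7.1e-05 unadjusted and 0.055 adjusted in edgeR. Over the 14 alternatives the adjusted p ran from 6.3e-06 (DESeq2) to 0.28 (edgeR without WT mouse 2). Without KO mouse 1 it was 0.020. The study named *Pdia3* among genes increased in these same livers, and listed qRT-PCR primers for *Pdia3*, *Pdia5* and *Pdia6*. The differences of these members are thus not independent evidence of direction.

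*Txndc5* encodes ERp46, an efficient oxidase in early folding, and lies on the minus strand at chr13:38500079-38528824. It stood at 154, 172 and 161 CPM in WT and at 154, 178 and 179 CPM in KO livers. The ranges overlapped, and the lowest mouse of all was a KO mouse. Its log2 fold change was 0.07, with a 95% confidence interval from -0.24 to 0.38 and an adjusted p of 0.90 in edgeR. That interval leaves out differences of the size estimated for *Pdia3*, *Pdia4* and *Pdia5*.

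*Erp44*, on the minus strand at chr4:48193323-48279558, encodes a retrieval factor that brings ERO1 and unassembled proteins back from the Golgi through mixed disulfides. It measured 62.5, 53.3 and 57.9 CPM in WT and 67.3, 71.4 and 64.2 CPM in KO livers. The groups did not overlap, but the gap was small. The log2 fold change was 0.22 ± 0.13 and the adjusted p was 0.59 in edgeR, and the sign turned when transcript lengths were taken into account, as described with the isoforms.

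*Erp29*, at chr5:121428590-121452506 on the minus strand, encodes a PDI relative that lacks the active-site cysteine pair and acts as an escort for secreted proteins. It stood at 32.4, 32.9 and 23.6 CPM in WT and at 28.4, 29.9 and 31.1 CPM in KO livers. All KO mice fell inside the WT range. The log2 fold change was 0.01, with a 95% confidence interval from -0.37 to 0.39, and its sign turned under total-count scaling and without WT mouse 3 or KO mouse 3. Of the words of 31 bases in its transcripts, 2.54% occur in other genes, compared with 0.79% for *Pdia3* and 0% for the other members.

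*Tmx1*, at chr12:70453095-70468040 on the plus strand, encodes a PDI anchored in the ER membrane that acts on membrane-bound clients. It measured 24.7, 22.4 and 28.3 CPM in WT and 24.2, 22.8 and 21.5 CPM in KO livers. The groups overlapped. It was the member with the lowest estimate, a log2 fold change of -0.14 with a 95% confidence interval from -0.48 to 0.21 and an adjusted p of 0.79 in edgeR.

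**Figure D2:**
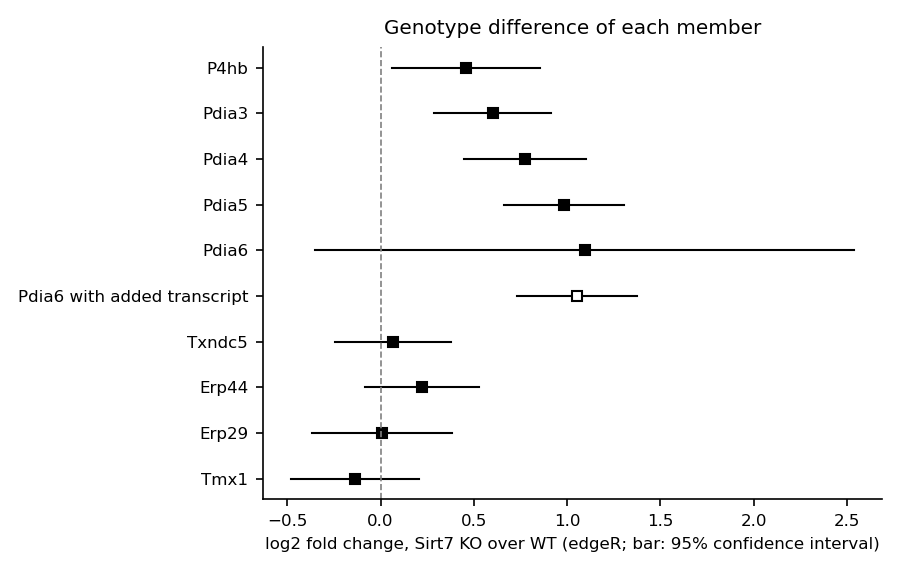
Log2 fold change of *Sirt7* KO over WT for each member from edgeR, with its 95% confidence interval as a bar. Intervals of *P4hb*, *Pdia3*, *Pdia4* and *Pdia5* lie above 0, and that of *Pdia6* runs from -0.35 to 2.54. The open square is *Pdia6* with a further transcript, chosen after its values were seen, and its interval runs from 0.73 to 1.37.

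*Pdia6* encodes P5, which forms a complex with the chaperone BiP, and lies on the plus strand at chr12:17266545-17284770. By the GENCODE M21 annotation it measured 71.1, 19.01 and 69.3 CPM in WT and 231, 46.6 and 62.6 CPM in KO livers. A single mouse, KO 1, held the high value, and the other two KO mice lay inside the WT range. The log2 fold change of 1.09 ± 0.64 had an adjusted p of 0.57 in edgeR, and without KO mouse 1 it was 0.04. Without KO mouse 2 its unadjusted p was 0.044 in edgeR.

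These swings had a counterpart in a single transcript, ENSMUST00000239402.1, of 2125 bases, which has no gene in GENCODE M21. It was chosen after its values were seen. It held 604, 1147 and 549 estimated reads in WT and 0, 1742 and 2192 in KO mice, while *Pdia6* held 842, 210 and 939 in WT and 2530, 441 and 651 in KO mice. In each genotype the mouse with the fewest reads on the transcript had the most on *Pdia6*, and KO mouse 1 had no read on the transcript at all. Their sum was 1446, 1357 and 1488 reads in WT and 2530, 2183 and 2843 reads in KO mice. In CPM the sum was 118 ± 7.30 (SD, n = 3) in WT and 245 ± 24.5 (SD, n = 3) in KO livers, and the SD within genotypes on the log2 scale was 0.118, compared with 1.15 for *Pdia6* alone. With this transcript added, *Pdia6* had a log2 fold change of 1.05 ± 0.14, an unadjusted p of 4.3e-05 and an adjusted p of 0.051 in edgeR, and every KO mouse was above every WT mouse. The adjusted p was 0.020 without KO mouse 1 and at most 0.22 when any other mouse was left out. With it, 5 of the 9 members were higher at an unadjusted p under 0.05. That the transcript comes from *Pdia6* could not be checked against a sequence here.

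**Figure D3:**
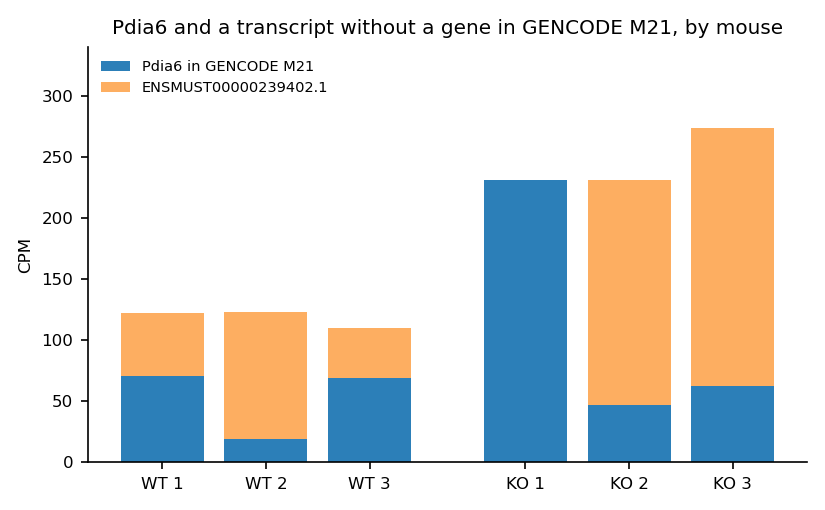
Stacked CPM of *Pdia6* as annotated (blue) and of the transcript ENSMUST00000239402.1 (orange) in each mouse. The blue part varies from 19.01 to 231 CPM between mice, whereas the whole bars lie between 110 and 123 CPM in WT and between 231 and 273 CPM in KO livers.

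Promoter sequences are shown for *Pdia6*, which had the highest estimate, for *Pdia4*, *Pdia5* and *P4hb*, which had an unadjusted p under 0.05, and for *Tmx1*, which had the lowest estimate. The corresponding stretch of *Pdia3* held none of the elements, and only its site is shown. Windows of 250 bases before and 50 bases after the RefSeq start site (GRCm38.p6) were matched for 8 of the 9 members, all but *Erp29*. The ER stress response element (ERSE), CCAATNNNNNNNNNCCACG, bound by ATF6 with NF-Y, was searched on both strands. Its full form was found in 1 of these 8 members, *Pdia6*, and in 0.137% of all 27025 genes with a window. A gene with several windows was counted if any of them matched. It lies between -98 and -80, counted from the base before the start site as -1. With at most 1 mismatch in the 10 fixed letters, a form chosen after the sequences were seen, it was found in *Pdia3*, *Pdia4*, *Pdia6* and *Erp44*. That form was found in 1.72% of all genes with a window. The partial site CCACG, which the full element contains, was found in 6 of the 8 members and in 35.5% of all genes with a window. The CCAAT box, the other end of the element, was found in 5 of the 8 and in 41.1% of all genes with a window. Capitals mark the ERSE, its form with 1 mismatch and CCACG on either strand (CGTGG on the minus strand). Each stretch is given 5′ to 3′ on the strand of its gene and stops before the earlier of the RefSeq and GENCODE start sites.
*Pdia6*, chr12:17266339-17266544, plus strand: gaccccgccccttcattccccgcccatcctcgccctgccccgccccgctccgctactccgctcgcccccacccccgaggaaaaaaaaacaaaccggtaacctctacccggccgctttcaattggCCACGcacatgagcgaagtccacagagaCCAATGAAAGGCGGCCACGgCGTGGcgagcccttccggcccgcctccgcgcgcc
*Pdia4*, chr6:47813513-47813762, minus strand: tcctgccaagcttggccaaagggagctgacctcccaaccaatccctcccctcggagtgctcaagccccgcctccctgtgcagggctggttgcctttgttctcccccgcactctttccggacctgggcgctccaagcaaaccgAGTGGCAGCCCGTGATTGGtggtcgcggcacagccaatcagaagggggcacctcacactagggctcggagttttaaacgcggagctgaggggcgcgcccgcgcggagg
*Pdia5*, chr16:35490874-35491123, minus strand: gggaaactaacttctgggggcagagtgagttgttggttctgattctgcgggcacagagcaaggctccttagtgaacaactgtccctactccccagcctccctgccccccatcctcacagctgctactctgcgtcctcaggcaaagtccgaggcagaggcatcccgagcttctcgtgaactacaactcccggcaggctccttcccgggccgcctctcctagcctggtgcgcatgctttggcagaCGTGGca
*P4hb*, chr11:120573254-120573503, minus strand: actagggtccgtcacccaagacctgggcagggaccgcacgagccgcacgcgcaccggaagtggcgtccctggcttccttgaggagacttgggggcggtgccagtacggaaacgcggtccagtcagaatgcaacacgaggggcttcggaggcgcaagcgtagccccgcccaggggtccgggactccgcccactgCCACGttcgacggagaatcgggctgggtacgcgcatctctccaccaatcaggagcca
*Tmx1*, chr12:70452904-70453094, plus strand: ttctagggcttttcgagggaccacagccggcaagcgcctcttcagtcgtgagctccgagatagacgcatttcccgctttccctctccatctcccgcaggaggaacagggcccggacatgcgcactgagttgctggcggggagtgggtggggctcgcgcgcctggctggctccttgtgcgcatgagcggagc
In *Pdia3* and *Erp44* the element with 1 mismatch is shown alone, for comparison with that of *Pdia6*. That of *Pdia3* lies between -29 and -11 from the RefSeq start site, after the GENCODE start, and that of *Erp44* between -126 and -108.
*Pdia3*, chr2:121413873-121413891, plus strand: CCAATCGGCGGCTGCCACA
*Erp44*, chr4:48279743-48279761, minus strand: CCAATCCCGAAGAGCCCCG
*Pdia5* had the smallest p among the members as annotated and held a single CCACG, on the minus strand between -7 and -3, and no other of these elements. The stretch of *Tmx1* held none. *Txndc5* has 3 windows, of which one held TGACGTG, the core of the element bound by XBP1 and ATF6 and present in 2.01% of all windows, and another held TGATGNAA, the element bound by ATF4 with C/EBP proteins and present in 3.97%. The second ERSE form, ATTGGNCCACG, was found in none of the members and in 0.0444% of all genes with a window. A match to these letters is a description of the sequence, and binding was not measured.

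Levels of different members were compared per length, as TPM, which scales reads by transcript length. In WT livers *P4hb* stood first at 462 ± 60.3 TPM (SD, n = 3), followed by *Pdia3* at 112, *Txndc5* at 55.3, *Pdia4* at 47.3, *Erp44* at 32.9, *Erp29* at 28.1, *Pdia5* at 25.8, *Pdia6* at 24.6 and *Tmx1* at 13.7. The first 4 did not overlap with their neighbours in this order, nor did *Pdia4* with *Erp44*, whereas each neighbouring pair from *Erp44* to *Tmx1* overlapped between mice. The TPM of *Pdia6* leaves out the transcript without a gene. In KO livers the order was *P4hb* at 602 ± 57.5 TPM (SD, n = 3), *Pdia3* at 169, *Pdia4* at 81.6, *Txndc5* at 56.1, *Pdia6* at 50.5, *Pdia5* at 49.0, *Erp44* at 28.5, *Erp29* at 27.3 and *Tmx1* at 11.03. *Pdia4* thus stood above *Txndc5* in KO livers and below it in WT livers, without overlap in either. *Pdia5* and *Pdia6* stood above *Erp44* by their means in KO livers, with overlap between mice for *Pdia6* only. *Erp44* and *Erp29* overlapped in KO livers as well, and *Tmx1* lay below both. The 9 members together took 0.186% ± 0.0188 (SD, n = 3) of the reads on genes in WT and 0.242% ± 0.0101 (SD, n = 3) in KO livers, and *P4hb* held 57.8% and 56.5% of these reads.

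Isoforms were read from the same files, with each transcript's estimated reads. Of the isoforms of the 9 genes, 19 had a mean of at least 10 reads over the mice. In the test over 23915 transcripts, 5 of the 19 were higher in KO livers at an unadjusted p under 0.05, beside 3.02% of all tested transcripts, and none was lower, beside 2.32%. They were P4hb-201 (log2 fold change 0.46), Pdia3-201 (0.59), Pdia3-203 (0.75), Pdia4-201 (0.77) and Pdia5-201 (0.99), which are the main isoforms of the 4 members named above and a short isoform of *Pdia3* annotated as a target of nonsense-mediated decay. No transcript in the whole table had an adjusted p under 0.05 in edgeR.

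*Pdia4*, *Pdia5* and *Pdia6* each had 1 annotated isoform above that minimum, which held between 96.7% and 100% of the gene's reads on average in either genotype. For *Pdia6*, these shares and the test of shares below leave out ENSMUST00000239402.1. That transcript held 1147 reads in WT mouse 2, where Pdia6-201 held 206. In KO mouse 1 it held 0, where Pdia6-201 held 2511. P4hb-201 held 96.2% of the reads of *P4hb* in both genotypes. Txndc5-201 and Txndc5-203 divided most of the reads of *Txndc5*, with 53.9% and 40.7% in WT and 56.9% and 38.6% in KO livers. The share of Txndc5-201 ran from 48.9% to 58.6% in WT and from 43.3% to 67.1% in KO mice, so the KO mice bracketed the WT mice. Erp29-201 held 70.3% in WT and 68.1% in KO livers, and the remainder was divided among 3 other forms.

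Short isoforms weighed more per length than by reads. Erp44-203, a processed transcript of 442 bases, took 5.64% ± 4.35 (SD, n = 3) of the reads of *Erp44* in WT and 2.10% ± 2.07 (SD, n = 3) in KO livers, but 38.2% and 18.7% of its TPM. By its means *Erp44* was thus higher in KO by CPM and lower in KO by TPM, and with average transcript lengths as offsets its log2 fold change was -0.16 in edgeR. P4hb-202, of 414 bases, took 2.11% of the reads of *P4hb* and 24.2% of its TPM in WT livers. Tmx1-203, of 710 bases, took 14.4% of the reads and 47.2% of the TPM of *Tmx1* in WT livers. The share of reads on the main isoform was compared between genotypes for each of the 9 members by a two-sided exact permutation test, which cannot go below p = 0.1 with 3 against 3 mice. All 9 overlapped between genotypes, with exact p values from 0.3 to 1.0 and adjusted values, over the 9, of at least 0.79.

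**Figure D4:**
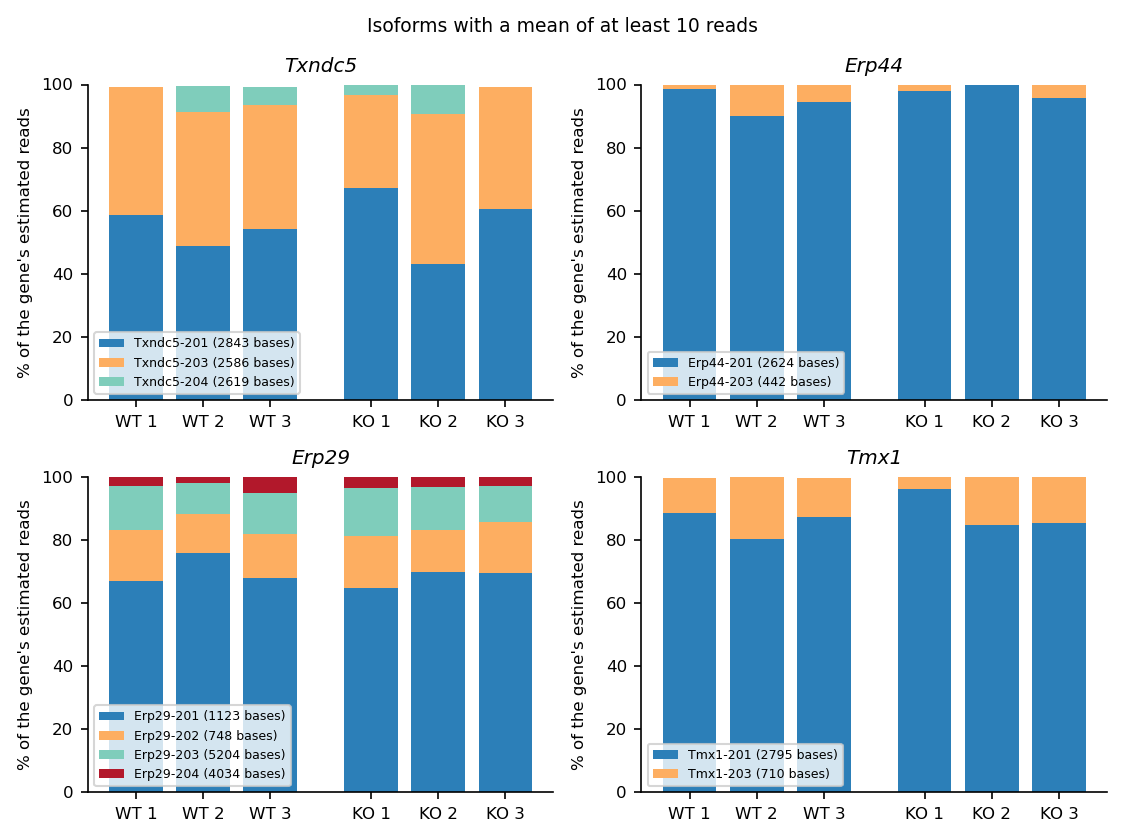
Percent of each gene's estimated reads on its isoforms, by mouse, for the 4 members with several isoforms of varying share. Bars stop short of 100% where isoforms with a mean under 10 reads hold the rest, and the share of the main isoform overlaps between genotypes in each gene.

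*P4hb* lies on the same chromosome as *Sirt7*, and 45119 bp separate the genes. The genes between them were read for comparison. Of these, *Arhgdia* had a log2 fold change of 0.01 ± 0.20, *Alyref* of -0.57 ± 0.36, *Anapc11* of -0.05 ± 0.17 and *Pcyt2*, a gene of phosphatidylethanolamine synthesis next to *Sirt7*, of 0.23 ± 0.19. None of the 4 had an unadjusted p under 0.05 in edgeR, and all 4 overlapped between genotypes. *Mafg*, on the other side of *Sirt7* and overlapping it, had a log2 fold change of -0.34 ± 0.20. *Gm3807* and *Npb*, also between them, and *Ppp1r27*, on the far side of *P4hb*, had at most 6 reads in any mouse and were not tested. The KO line came from a mixed strain background. For *P4hb*, an effect of the loss of *Sirt7* and an effect of DNA linked to the KO allele cannot be told apart in these mice. The part of the genomic position in the difference of *P4hb* was not tested.

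The other genes of the ER disulfide pathway were taken from lists made by known role. Of 39 listed genes, 33 were tested, and 9 of these were higher in KO livers at an unadjusted p under 0.05, beside the 6.54% of all tested genes. None was lower at that limit, and none passed an adjusted p under 0.05 with a fold change over 1.5 in edgeR. The median log2 fold change of the 33 was 0.094, with 21 above 0. The count of 9 fell to 5 without WT mouse 2 and to 5 under total-count scaling, where *Glrx*, *P4ha2* and *Vkorc1*, named after their values were seen, were lower.

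Among enzymes of electron transfer and oxidation, 3 of 12 tested were higher at an unadjusted p under 0.05, beside 6.54% of all tested genes. *Ero1lb*, an oxidase that recharges PDI, stood at 32.6, 31.1 and 35.1 CPM in WT and at 49.9, 39.9 and 41.4 CPM in KO livers, with a log2 fold change of 0.41 ± 0.15. Its relative *Ero1l*, the oxidase induced by hypoxia, was 17.9, 12.7 and 11.5 CPM in WT and 15.2, 14.5 and 14.1 CPM in KO livers, and the groups overlapped. *Qsox1*, a sulfhydryl oxidase of the secretory pathway, had a log2 fold change of 0.49 ± 0.14. *Gpx7*, a peroxidase that feeds oxidizing power to PDI, had 6, 7 and 6 reads in WT and 13, 15 and 27 reads in KO mice, so that its log2 fold change of 1.75 ± 0.52 rests on few reads. *Prdx4*, an ER peroxiredoxin, had a log2 fold change of 0.20 ± 0.13 and an unadjusted p of 0.17, although every KO mouse was above every WT mouse. *Vkorc1*, a reductase of the vitamin K cycle, was the only one of the 33 with every KO mouse below every WT mouse. That separation was seen in 8.06% of all tested genes. *Vkorc1* stood at 290 to 301 CPM in WT and 221 to 262 CPM in KO livers, with an unadjusted p of 0.073 in edgeR. Of the 33, 10 had every KO mouse above every WT mouse, beside 8.76% of all tested genes.

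Among the other PDI-family genes, 2 of 11 tested were higher at that limit, beside 6.54% of all tested genes. They were the membrane-anchored *Tmx2*, with a log2 fold change of 0.40 ± 0.15, and *Txndc11*, with 0.47 ± 0.14. *Pdia2*, *Agr2* and *Agr3*, PDI genes of pancreas and mucous epithelia, had no read in any mouse.

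Of the partners of PDI members, 4 of 10 tested were higher at an unadjusted p under 0.05, beside 6.54% of all tested genes. *Calr*, the lectin chaperone calreticulin that works with ERp57, stood at 176, 134 and 129 CPM in WT and at 284, 245 and 280 CPM in KO livers. Its log2 fold change was 0.89 ± 0.17, with an adjusted p of 0.12 in edgeR. *Hspa5*, which encodes BiP, the partner of P5, stood at 489, 425 and 349 CPM in WT and at 892, 631 and 635 CPM in KO livers. Its log2 fold change was 0.77 ± 0.20, with an adjusted p of 0.20 in edgeR, and both genes separated the genotypes in all mice. *Canx*, the membrane lectin calnexin, had 0.41 ± 0.14, and *Tapbp*, tapasin of the MHC class I loading complex, had 0.38 ± 0.13. The study named *Hspa5* among genes increased in these same livers, and listed qRT-PCR primers for *Hspa5*, *Calr* and *Canx*. The direction of these genes is thus not independent evidence. Partners that join PDI in other complexes did not pass. *P4ha1*, the catalytic subunit of prolyl 4-hydroxylase, had a log2 fold change of -0.40 ± 0.43 at 4.62 CPM in WT, and *Mttp*, the large subunit of the triglyceride transfer protein, had -0.21 ± 0.15 at 228 CPM in WT.

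**Figure D5:**
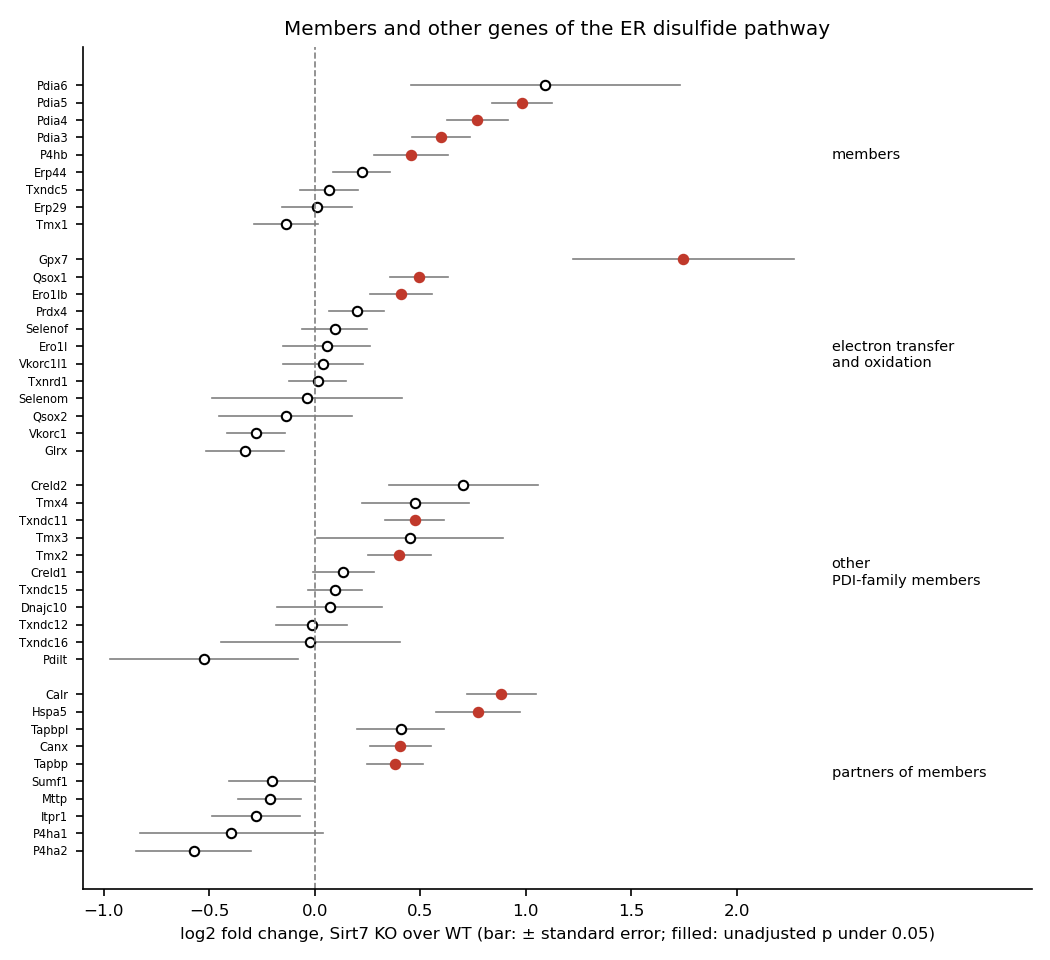
Log2 fold change of *Sirt7* KO over WT with its standard error for the 9 members and the 33 tested genes of the 3 lists, ordered within each list. Filled points have an unadjusted p under 0.05 in edgeR, and all 13 of them lie to the right of 0.

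The genes most like the family were found by the mean of the 9 members' log2(CPM + 0.5), each centred over the 6 mice. That mean was -0.11, -0.32 and -0.22 in WT and 0.35, 0.12 and 0.19 in KO mice. The 5 nearest of 4458 other genes with at least 20 CPM, by root mean square difference over the 6 mice, were *Serpina11* (0.051), *Ssr1* (0.062), *Acadsb* (0.068), *Spg21* (0.068) and *Slc39a7* (0.073). *Ssr1* encodes a subunit of the translocon-associated complex at the ER membrane, and *Slc39a7* encodes a zinc transporter of the ER and Golgi. *Serpina11* encodes a serpin made by the liver, and *Acadsb* a mitochondrial acyl-CoA dehydrogenase. Likeness over 6 mice is a description, and the high value of *Pdia6* in KO mouse 1 weighs in the mean.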

How the data were processed

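The samples were livers of 3 WT and 3 *Sirt7* KO males, grouped by the genotype in the sample labels. Libraries were made with SMART-seq HT and Nextera XT. Reads were trimmed by the authors in Trim Galore 0.6.5 and quantified them on the GRCm38 transcriptome with Salmon 1.2.1, per the processing notes of the submitters, and deposited for each mouse the estimated counts of reads per transcript, which are not normalized, and TPM, which the authors' Salmon run scaled to effective length and to a fixed total. The annotation release is not given in the sources used here.

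Estimated counts were summed per gene of GENCODE M21 and rounded. Of 140992 transcripts, 139172 matched by version and 619 by identifier only, and 1201 had no gene and were left out (0.303% to 0.492% of reads). The quasi-likelihood test of edgeR 4.0.16, run in R 4.3.3 after TMM scaling and filterByExpr (minimum count 10), was applied to genes and to transcripts, with Benjamini-Hochberg adjustment over all 12524 genes or 23915 transcripts. The biological coefficient of variation was 26.4%. CPM are per effective library size. Shares of isoforms were compared by exact permutation, and promoter windows were searched with Python 3.11.15.

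Alternatives were other normalizations, filters, average transcript length offsets, DESeq2 1.42.0, the replicate number as a block and leaving out each mouse. The addition of a transcript to *Pdia6* was chosen after seeing the data. Mice of the same number are different animals. Correlations of their deviations ran from -0.044 to 0.080, compared with -0.10 to 0.049 for mice of different numbers. Mice of 1 genotype differed by more than sampling noise (chi-square of at least 15.8 per gene). The text names the 9 members with their isoforms, *Sirt7*, listed pathway genes with an unadjusted p under 0.05 and 9 listed genes whatever their p, the genes between *P4hb* and *Sirt7* or beside them, and the 5 genes most like the family. *Vkorc1*, *Glrx*, *P4ha2*, *Creld2*, *Pdia2*, *Agr2* and *Agr3* fall outside this rule and were named after their values were seen. The members, lists and rules were chosen with earlier results of these data known. No molecular identifiers are named, so depth covers counting error only, and the uncertainty of assigning reads to transcripts was not used here.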

Additional observations from a re-analysis of the deposited data

How the results depend on the processing

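*Pdia3*, *Pdia4*, *Pdia5*, *Pdia6* and *P4hb* kept a positive log2 fold change under all 14 alternatives, and *Tmx1* a negative one, whereas *Txndc5*, *Erp44* and *Erp29* turned sign under some. Under total counts *Txndc5* was at -0.041 and *Erp29* at -0.10. With average transcript length offsets *Erp44* was at -0.16 in both edgeR and DESeq2. *Erp29* ran from -0.13 to 0.092 when each mouse was left out, Erp29-201 from -0.18 to 0.11 and Tmx1-201 from -0.20 to 0.038. Members passing an adjusted p under 0.05 with a fold change over 1.5 numbered 0 in edgeR, but 3 in DESeq2, 3 in DESeq2 with length offsets, 3 without a filter on low counts and 0 to 1 when a mouse was left out. The 3 without a filter were *Pdia4*, *Pdia5* and *Pdia6*, and the adjusted p of 2.4e-06 for *Pdia6* there stands against mice that overlap between genotypes. The 1 was *Pdia5*, without KO mouse 1. The median of the members ran from 0.23 to 0.55 when a mouse was left out. Over all genes, the same limits gave 1 in edgeR, 2 under total counts, 2 with length offsets, 633 without a filter, 256 in DESeq2 and 264 in DESeq2 with length offsets, and 0 to 252 when a mouse was left out, with 252 without KO mouse 1. At an unadjusted p under 0.05, 819 genes were higher and 599 lower, compared with 520 and 993 under total counts and 1391 and 971 without a filter, and with 579 to 1159 and 415 to 1049 when a mouse was left out. Listed pathway genes passing numbered 2 in DESeq2 (*Calr* and *Hspa5*) and 3 with length offsets (also *Canx*). Those higher at an unadjusted p numbered 5 under total counts and 5 to 9 when a mouse was left out, and those lower numbered 3 and 0 to 1. Without a filter, an alternative chosen for this list after seeing the data, 3 listed genes passed (*Calr*, *Creld2* and *Hspa5*), 11 were higher and 1 was lower (*P4ha2*). Isoforms of members higher at an unadjusted p numbered 3 to 5 when a mouse was left out. The causes of these shifts were not tested.

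The labels give no link between mice of the same number besides that number. Correlations of their deviations were 0.065, 0.080 and -0.044, compared with -0.10 to 0.049 for mice of different numbers. Whether mice of the same number were handled together is not given and was not tested. With the replicate block, 41 genes passed over all genes, 0 members passed, 5 members, *Pdia6* included, were higher at an unadjusted p under 0.05, beside 6.73% of all genes in that fit, and 3 isoforms of members were higher.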
